A study of Mus musculus with 6 samples.

Results

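Kupffer cells are the resident macrophages of the liver sinusoids, and they lie against the liver sinusoidal endothelial cells (LSECs) that were the target of this study. The marker set followed here comprised 10 genes, Cd5l, Marco, Lyz2, Cd68, Csf1r, Vsig4, Clec4f, Spic, Timd4 and Cd163, chosen by name and matched by gene symbol. All 10 were among the 24421 symbols listed, and all 10 passed the low-count filter that left 12892 genes for testing. RNA came from primary mouse liver cells of the genotype labelled wild, labelled as endothelial cells and picked with magnetic beads against CD146, a surface protein of endothelium encoded by Mcam. The labels of all 6 samples carry the same protocol, with overnight plating on collagen I and 6 h without serum. The pressure group (3 samples) was then exposed for 8 h to cyclic hydrostatic pressure, from 101 to 135 kPa at a frequency of 0.01 Hz. For the control group (3 samples) no duration or handling is labelled after the starvation, so culture time and handling in that step cannot be told apart from pressure. Pooling of animals, sex and age are not labelled, and neither is whether samples came from separate cultures, so p-values measure the spread between these samples only.

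Kupffer cells take up particles, microbes, aged erythrocytes and modified lipoproteins from portal blood through scavenger and complement receptors. They depend on the CSF1 receptor for survival, and on PU.1 and LXRα among transcription factors for their identity. They also recycle heme iron. Some of the 10 genes, such as Clec4f and Vsig4, are largely restricted to Kupffer cells in mouse liver. Others, such as Lyz2, Cd68 and Csf1r, are shared by monocytes and other macrophages. In bulk RNA, fewer cells of a type and less RNA per cell cannot be told apart, and no share of macrophages can be derived from these libraries alone.

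The libraries held 12922959 to 18655749 counts, and 68.8% of all tested genes passed an adjusted p of 0.05 between the groups by edgeR's quasi-likelihood test (33.7% as higher under pressure and 35.1% as lower). Levels below are TMM-scaled CPM unless a per-length level is named. Each log2 fold change sets pressure over control, is followed by ± its standard error, and comes from the fit over all genes. Pressure sample 3 stood apart from the other pressure libraries. Its log2 level exceeded their mean by a median of 0.16 for genes with exons up to 3272 bases in total and fell short of it for genes of 5824 bases or more (median difference -0.16). Calls of markers, and those list counts of calls given here that moved by over 1.5 times, are also given without this library where it changed them.

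Macrophage transcripts were abundant in the CD146-selected cultures of both groups. Together the 10 markers took 0.543%, 0.583% and 0.612% of all counts in pressure samples 1 to 3, and 0.749%, 0.741% and 0.700% in control samples 1 to 3. The share was lower in every pressure library than in every control library. On the TMM-scaled level the summed markers came to 5975, 6264 and 6478 CPM under pressure and 6979, 6906 and 6466 CPM in controls, and the groups overlapped. Cd5l, Marco and Lyz2 made up 85.6% to 86.8% of the summed marker counts under pressure and 86.0% to 87.1% in controls.

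Compared per length of exons, the most abundant markers stood above the general endothelial gene Pecam1. Cd5l averaged 2976 ± 152 per-length units under pressure and 4713 ± 147 in controls (TPM-like: counts per kilobase of exonic sequence, scaled to the same sum in each library; SD, n = 3 each). Marco averaged 3840 ± 165 units under pressure and 3877 ± 165 in controls, and Lyz2 2891 ± 231 under pressure and 3746 ± 75.6 in controls. Per-length units carry no TMM factor (0.909 to 0.946 in pressure libraries and 1.074 to 1.083 in control libraries). They serve to compare genes within a group, and differences between groups in them do not match those in CPM. Pecam1 stood at 566 units under pressure and 679 in controls, and the vascular cadherin Cdh5 at 1629 under pressure and 1635 in controls. Mcam, the gene of the protein used for selection, was far lower, at 25.9 units under pressure and 15.5 in controls.

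Below these, Cd68 reached 1188 ± 72.2 per-length units under pressure and 1577 ± 134 in controls. Vsig4 averaged 126 ± 17.9 under pressure and 217 ± 6.53 in controls, Csf1r 117 ± 12.9 under pressure and 104 ± 6.65 in controls, and Clec4f 104 ± 7.68 under pressure and 115 ± 9.79 in controls. Timd4 (34.3 ± 2.32 under pressure and 40.2 ± 5.91 in controls) and Spic (27.9 ± 5.68 under pressure and 40.5 ± 2.84 in controls) were lower again. Cd163 was lowest, at 0.814 ± 0.344 units under pressure and 1.98 ± 0.110 in controls. Neighbours in this order whose libraries overlapped in range were Cd5l and Lyz2, Vsig4 and Csf1r, Csf1r and Clec4f, and Timd4 and Spic under pressure. In controls they were Marco and Lyz2, Clec4f and Csf1r, and Spic and Timd4. Marco thus stood alone at the top under pressure, and Cd5l in controls.

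**Figure D1:**
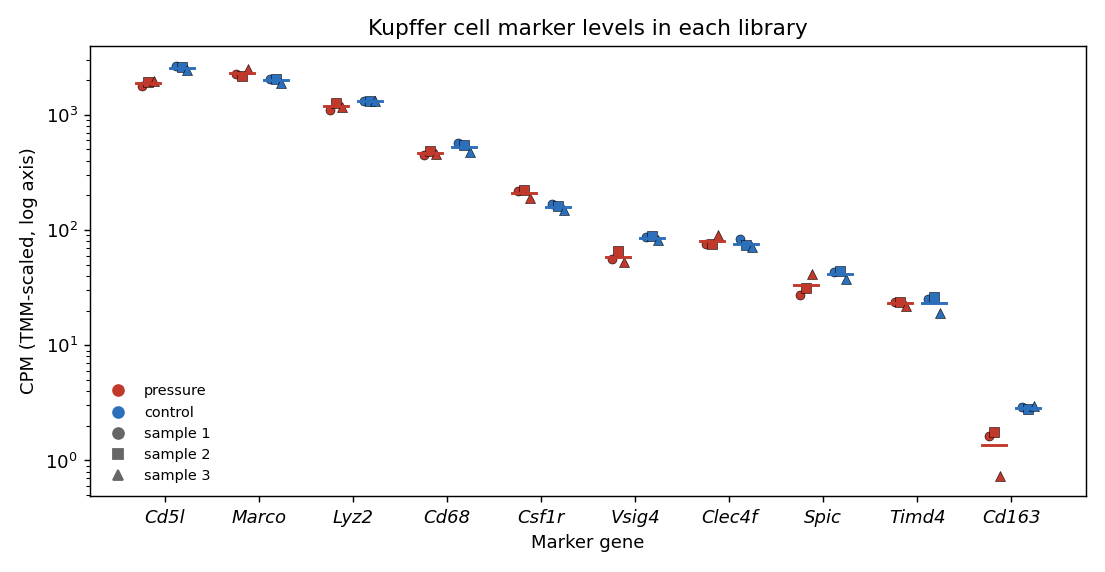
TMM-scaled CPM (log axis) of the 10 Kupffer cell markers in the 3 pressure and 3 control libraries; each point is a library and each bar a group mean. Marco lies above Cd5l in all 3 pressure libraries and below it in all 3 control libraries, and Cd163 is lowest throughout.

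Of the 10 markers, 3 fell under pressure (Cd5l, Vsig4 and Cd163), 2 rose (Csf1r and Marco) and 5 did not pass the test (edgeR, adjusted p of 0.05), against 68.8% of all genes called. The median log2 change was -0.17 over the 10 markers and -0.015 over all tested genes. Levels did not overlap between the groups for 6 of the 10, against 71.9% of all tested genes. These counts lie near or below the background. Without pressure sample 3, 6 markers were lower and 2 higher, and without control sample 3 only 1 was higher.

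Among the secreted and surface receptors for debris and microbes, Cd5l, Vsig4 and Cd163 fell, Marco rose, and Timd4 and Clec4f did not pass the test. Cd5l encodes AIM, a secreted scavenger-receptor cysteine-rich (SRCR) protein of tissue macrophages that binds lipids and supports macrophage survival (chr3:87357881-87371073, GRCm38, plus strand; this and the other 9 are protein-coding genes). It stood at 1769, 1923 and 1962 CPM in pressure samples and at 2626, 2609 and 2444 CPM in control samples. All pressure values lay below all control values, and the log2 fold change was -0.44 ± 0.064 (edgeR adjusted p = 0.000127). Cd5l stayed lower in every alternative in which it could be fitted, with log2 changes from -0.65 to -0.40.

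Marco, a membrane class A scavenger receptor with an SRCR domain that binds bacteria and particles (chr1:120474538-120505024, minus strand), went the other way. It had 2244, 2176 and 2485 CPM under pressure, against 2061, 2038 and 1874 CPM in controls. The groups did not overlap, and the log2 fold change was 0.21 ± 0.070 (edgeR adjusted p = 0.0211). This call was lost without control sample 3 (0.16, adjusted p = 0.106), with upper-quartile scaling (0.098, adjusted p = 0.299) and with the sample number as a block (0.21, adjusted p = 0.0582). With library totals and no composition factor the change was -0.0030. That setting moved the median of all genes to -0.23.

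Vsig4, the complement receptor CRIg that captures C3b-coated particles (chrX:96247203-96293438, minus strand), had 55.95, 65.4 and 52.2 CPM under pressure and 87.2, 88.6 and 81.5 CPM in controls. Every pressure value lay below every control value (log2 fold change -0.57 ± 0.095, edgeR adjusted p = 0.000346). Cd163, another SRCR-domain receptor, which takes up hemoglobin-haptoglobin complexes (chr6:124304656-124330527, plus strand), was counted 26, 29 and 9 times in pressure libraries and 58, 52 and 45 times in control libraries. Its levels were 1.62, 1.76 and 0.737 CPM under pressure and 2.90, 2.77 and 2.97 CPM in controls, again without overlap, with a log2 fold change of -1.02 ± 0.26 (edgeR adjusted p = 0.00551). The standard error was the widest of the 10, and the change was -0.76 without pressure sample 3.

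Timd4, the phosphatidylserine receptor by which long-lived resident macrophages bind apoptotic cells (chr11:46810800-46844332, plus strand), had 23.7, 23.7 and 22.0 CPM under pressure, against 24.98, 26.0 and 19.03 CPM in controls. The groups overlapped (log2 fold change -0.015 ± 0.12, edgeR adjusted p = 0.922, 95% interval -0.29 to 0.26). Clec4f, a C-type lectin of mouse Kupffer cells that binds galactose-bearing glycans (chr6:83644542-83656187, minus strand), had 75.6, 75.8 and 89.6 CPM under pressure, against 82.9, 74.5 and 70.7 CPM in controls. It also overlapped, with a log2 fold change of 0.076 ± 0.096 (edgeR adjusted p = 0.495) and a 95% interval from -0.14 to 0.29.

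Promoters are shown for Cd5l, Marco and Vsig4, which passed the test in opposite directions at more than 50 CPM; Csf1r is not among those printed. Each is the 200 bases before the RefSeq start of the gene (GRCm38.p6), written 5′ to 3′ on the strand of the gene. Capitals mark GAGGAA or, on the opposite strand, TTCCTC, the purine-rich core to which ETS-family factors such as PU.1 and SPI-C bind.
Cd5l (chr3:87357681-87357880, plus strand): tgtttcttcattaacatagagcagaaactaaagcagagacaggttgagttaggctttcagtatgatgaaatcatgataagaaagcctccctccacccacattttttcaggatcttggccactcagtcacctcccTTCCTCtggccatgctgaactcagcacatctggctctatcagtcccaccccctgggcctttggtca
Vsig4 (chrX:96293439-96293638, minus strand): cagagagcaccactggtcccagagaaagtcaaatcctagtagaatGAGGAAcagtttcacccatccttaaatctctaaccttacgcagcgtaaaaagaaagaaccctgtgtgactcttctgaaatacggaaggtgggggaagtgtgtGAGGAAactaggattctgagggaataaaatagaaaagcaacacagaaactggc
Marco (chr1:120505025-120505224, minus strand): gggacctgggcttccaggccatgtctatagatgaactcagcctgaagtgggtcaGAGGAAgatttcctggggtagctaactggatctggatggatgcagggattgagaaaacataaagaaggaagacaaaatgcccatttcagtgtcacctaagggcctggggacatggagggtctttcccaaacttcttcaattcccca
The motif begins 66 bases before the start in Cd5l, 155 and 53 bases before it in Vsig4 and 146 bases before it in Marco. Over windows from 250 bases before to 50 after the start, searched on both strands, 4 of the 9 markers found in the RefSeq promoter table held GAGGAA, Cd68 being the fourth, against 28.3% of all 32851 promoters. A match describes letters, not a bound site, and the promoters with the motif belong to markers that fell, rose or did not pass the test.

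Csf1r, the receptor tyrosine kinase for CSF1 and IL-34 on which macrophages depend, rose. It had 219, 220 and 188 CPM under pressure and 170, 160 and 148 CPM in controls, with no overlap and a log2 fold change of 0.39 ± 0.087 (edgeR adjusted p = 0.00218). With library totals only the change was 0.18 and did not pass (adjusted p = 0.0739). Csf1r lies at chr18:61100598-61132149 (plus strand), and the protein-coding gene Hmgxb3 overlaps it on the opposite strand. Hmgxb3 had 7014 counts over the 6 libraries, and without a stated strand setting its reads at the overlap cannot be told apart from those of Csf1r.

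Unlike Csf1r, the other shared markers named above, Cd68 and Lyz2, sat close to the threshold. Cd68, a lysosomal glycoprotein of macrophages (chr11:69664213-69666153, minus strand), had 448, 485 and 459 CPM under pressure and 567, 546 and 474 CPM in controls. The groups overlapped only between pressure sample 2 and control sample 3, and the log2 fold change was -0.19 ± 0.080 (edgeR adjusted p = 0.0563). It passed as lower without pressure sample 3 (adjusted p = 0.0272), without control sample 3 (0.0178) and with library totals only (-0.40, adjusted p = 0.00105). It also passed with upper-quartile factors (edgeR adjusted p = 0.00746), no low-count filter (0.0368) and a mean of at least 5 CPM (0.0429). Lyz2, lysozyme M, an enzyme that cleaves bacterial cell walls (chr10:117277331-117282321, minus strand), had 1110, 1261 and 1176 CPM under pressure and 1313, 1316 and 1315 CPM in controls. These groups did not overlap, yet the change of -0.15 ± 0.065 missed the threshold (edgeR adjusted p = 0.0564). It passed without pressure sample 2 (adjusted p = 0.0291), without pressure sample 3 (0.0400) and with library totals only (-0.37, adjusted p = 0.000687). Lyz2 also passed with upper-quartile factors (edgeR adjusted p = 0.00567), no low-count filter (0.0385) and a mean of at least 5 CPM (0.0400). With limma-voom the adjusted p was 0.0456. Lyz2 counts held fractions in some libraries, as did those of its near-identical copy Lyz1, which stood at 145 ± 8.35 CPM under pressure and 158 ± 6.96 CPM in controls. The split between these copies is uncertain. With their counts summed, the adjusted p was 0.0561.

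Spic encodes SPI-C, an ETS-family transcription factor that heme induces in macrophages and that is required for iron-recycling macrophages of the spleen in mice (chr10:88674772-88685015, minus strand). Its levels were 27.2, 31.2 and 41.9 CPM under pressure and 43.2, 43.9 and 37.5 CPM in controls. Pressure sample 3 lay within the control range, and the other pressure samples lay below it. The log2 fold change was -0.32 ± 0.15 (edgeR adjusted p = 0.0693), and without pressure sample 3 it was -0.51 (adjusted p = 2.31e-05). With all samples, Spic also passed as lower with upper-quartile factors (edgeR adjusted p = 0.0289), library totals only (0.00922) and no low-count filter (0.0365). It passed with limma-voom too (adjusted p = 0.0448).

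**Figure D2:**
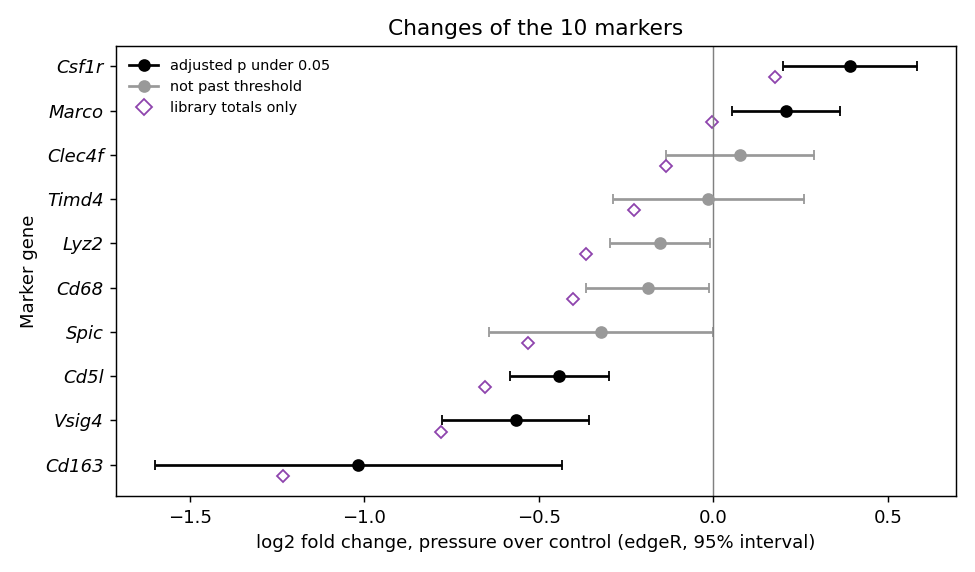
Log2 fold change of each marker, pressure over control, with its 95% interval from edgeR (circles; black where the adjusted p is under 0.05), and the same with library totals only (diamonds). The values run from -1.02 (Cd163) to 0.39 (Csf1r), and library totals lower all 10 by a similar amount.

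Whether the markers moved by a single factor was asked with ratios of marker to marker within a library, which do not depend on library scaling. They do not cancel the length-linked shift of pressure sample 3 where lengths differ. Csf1r has 5774 bases of exons, against 2036 in Cd5l and 1257 in Cd68. In that sample the log2 level of Csf1r differed from the mean of the other pressure samples by -0.22, and that of Cd5l by 0.089. A single factor for all markers would leave such ratios alike in both groups. The fitted changes ranged over 1.41 on the log2 scale, from -1.02 for the sparsely counted Cd163 to 0.39 for Csf1r. The next lowest was Vsig4 at -0.57. Such a range alone does not answer the question, since estimates with error spread even under a single factor. Several ratios differed between the groups. Per 100 counts of Cd5l, Marco had 127, 113 and 127 counts in pressure libraries and 78.5, 78.1 and 76.7 counts in control libraries. Marco thus outnumbered Cd5l in all 3 pressure libraries and in none of the 3 control libraries. The ratio was 1.57-fold higher under pressure (log2 0.65 ± 0.083, edgeR with the Cd5l count in place of library size, adjusted p = 1.30e-05). Csf1r had 12.4, 11.4 and 9.61 counts per 100 of Cd5l under pressure and 6.46, 6.14 and 6.07 in controls, a 1.79-fold higher ratio (edgeR adjusted p = 1.66e-05).

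Of the 9 other markers, 6 were higher relative to Cd5l in this fit and 0 lower, against 54.9% of all genes higher and 18.3% lower (73.2% in all). The 6 were Csf1r, Marco, Clec4f (log2 0.52 ± 0.10), Timd4 (0.44 ± 0.12), Lyz2 (0.29 ± 0.084) and Cd68 (0.26 ± 0.090). For these 6, and for no other marker, every pressure ratio lay above every control ratio. In either direction, ratios to Cd5l did not overlap for 7 of the 9 markers, against 75.1% of all genes. An exact permutation test of 3 against 3 samples, two-sided, gave p = 0.1 for each of these 7, the smallest it can give. The Cd68 call was lost without pressure sample 2, control sample 2 or control sample 3 (adjusted p 0.0535, 0.0718 and 0.0926), and the Lyz2 call without control sample 2 (0.0521).

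Vsig4 and Spic were not distinguishable from a shared change with Cd5l. Vsig4 had 3.16, 3.40 and 2.66 counts per 100 of Cd5l under pressure and 3.32, 3.40 and 3.33 in controls, which overlapped (log2 -0.12 ± 0.11, edgeR adjusted p = 0.325). Spic had 1.54, 1.62 and 2.14 under pressure and 1.64, 1.68 and 1.54 in controls, which also overlapped (log2 0.12 ± 0.13, edgeR adjusted p = 0.420). For Cd163 the pressure ratios of 0.0916, 0.0917 and 0.0376 all lay below the control ratios of 0.110, 0.106 and 0.122. Its fitted difference of -0.57 ± 0.28 did not pass (edgeR adjusted p = 0.0807).

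**Figure D3:**
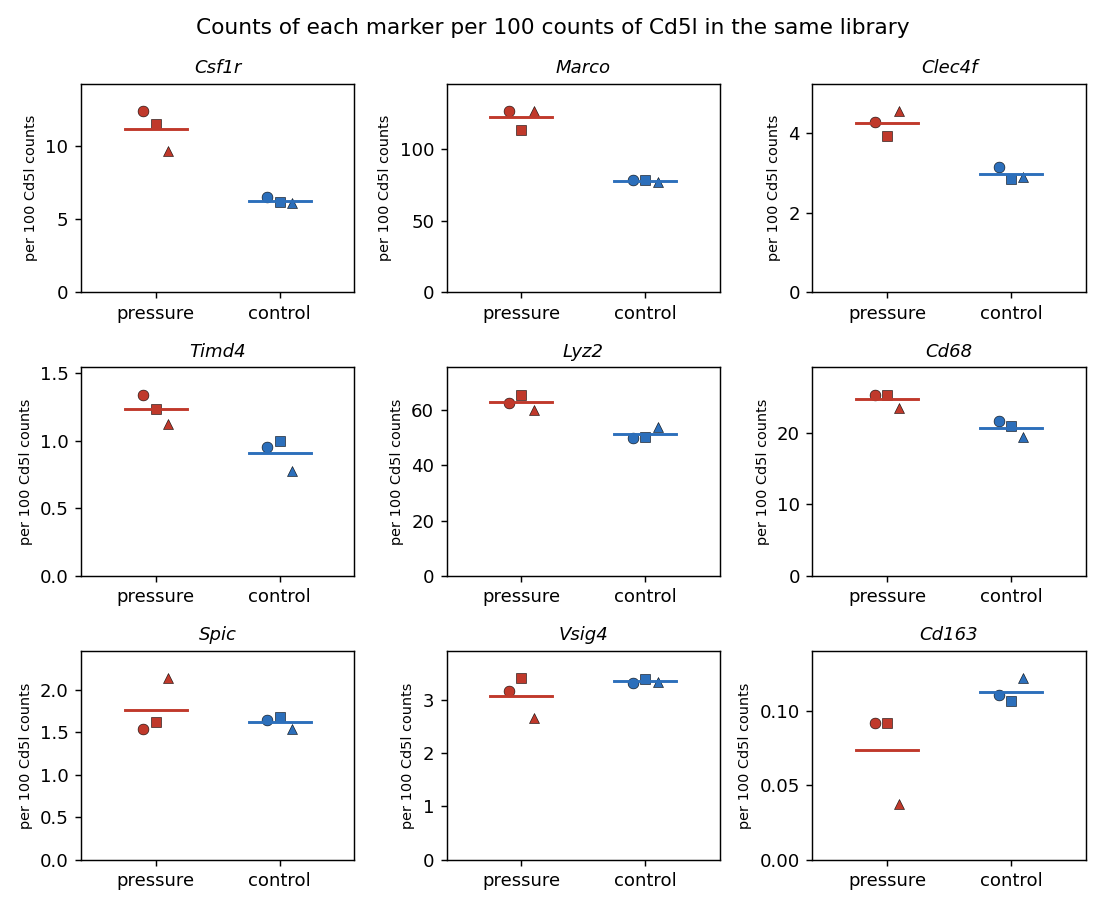
Counts of each marker per 100 counts of Cd5l in the same library (linear axes from 0), 3 pressure and 3 control libraries, with group means as bars. Csf1r, Marco, Clec4f, Timd4, Lyz2 and Cd68 have all pressure points above all control points, while Spic and Vsig4 overlap.

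Set against Csf1r, 8 of 9 markers were lower under pressure and 0 higher, against 51.9% of all genes lower and 15.2% higher (67.1% in all). Ratios to Csf1r did not overlap for 7 of the 9, all below, against 69.1% of all genes. Cd163 (log2 -1.43 ± 0.28), Vsig4 (-0.96 ± 0.13) and Cd5l (-0.83 ± 0.13) differed most from Csf1r. Cd5l had 808, 873 and 1041 counts per 100 of Csf1r under pressure, against 1548, 1627 and 1647 in controls. The calls of Clec4f and Timd4 were lost without some libraries: Clec4f without any single one of pressure samples 1 and 2 and control samples 1 to 3 (adjusted p 0.0806 to 0.226), and Timd4 without pressure sample 1 or 2 or control sample 1 or 2 (0.0582 to 0.172). Marco was the exception, with 1025, 988 and 1319 per 100 of Csf1r under pressure, overlapping 1215, 1271 and 1263 in controls (log2 -0.17 ± 0.13, edgeR adjusted p = 0.248). Without pressure sample 3 it too was lower than Csf1r (-0.31, adjusted p = 0.00341). All of these ratios share the counting and replicate error of the Csf1r denominator. Csf1r had the highest log2 change of the marker set in the main fit (0.39), and Cd5l was among the lowest (-0.44). The direction of most ratios to Csf1r or to Cd5l thus restates where these genes lie in the set.

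Set against Cd68, Csf1r (log2 0.58 ± 0.14) and Marco (0.40 ± 0.13) were higher and Vsig4 (-0.38 ± 0.14) and Cd163 (-0.84 ± 0.28) lower, so 2 of 9 rose and 2 fell, against 39.8% of all genes higher and 25.6% lower (65.4% in all; edgeR, adjusted p at most 0.0132 for the 4). Ratios to Cd68 did not overlap for 7 of the 9, against 66.9% of all genes. For Lyz2 over Cd68 the groups overlapped. Lyz2 had 248, 260 and 256 counts per 100 of Cd68 under pressure and 232, 241 and 278 in controls (log2 0.026 ± 0.13, edgeR adjusted p = 0.872).

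The makeup of the marker set differed accordingly. Cd5l was 29.6%, 30.7% and 30.3% of the summed marker counts in pressure libraries and 37.6%, 37.8% and 37.8% in control libraries. Marco was 37.6%, 34.7% and 38.4% under pressure and 29.5%, 29.5% and 29.0% in controls. Lyz2 and Cd68, by contrast, held shares that overlapped between the groups, 18.96% ± 1.04 and 7.45% ± 0.334 under pressure and 19.4% ± 0.813 and 7.79% ± 0.414 in controls (SD, n = 3 each). Relative to the sum of the other markers, Csf1r (log2 0.53 ± 0.10) and Marco (0.50 ± 0.088) were higher and Cd5l (-0.49 ± 0.066), Vsig4 (-0.45 ± 0.11) and Cd163 (-0.89 ± 0.28) lower (edgeR, adjusted p at most 0.0126). Without pressure sample 3, Spic was lower as well (-0.36, adjusted p = 0.00151, against -0.20 and 0.177 with it), which made 4 markers lower. Cd5l, Marco and Lyz2 made up most of the summed counts. The changes of Marco and Cd5l relative to the sum thus partly restate the ratio of Marco to Cd5l. In these fits the share of all genes called was 66.8% with Cd5l left out of the sum, 67.5% with Lyz2 left out, 70.3% with Marco left out, 68.3% with Csf1r, Cd68 or Spic left out, and 68.2% with Vsig4, Clec4f, Timd4 or Cd163 left out.

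Other macrophage and myeloid genes were present throughout. The counts of calls in the lists stand against 68.8% of all tested genes called, 33.7% higher and 35.1% lower, and nothing particular to a list is read from them. Of the lists that follow, Spi1, Nr1h3 and Slc40a1 stand in more than a single one. In the list of 14 other Kupffer cell and tissue macrophage genes, 2 rose, 4 fell and 8 did not pass, with a median log2 change of -0.072. With library totals only, 1 rose and 7 fell, and without control sample 1 the number higher was 1. The F4/80 gene Adgre1 stood at 183 ± 18.04 CPM under pressure and 168 ± 9.37 CPM in controls (adjusted p = 0.244), and the complement genes C1qa, C1qb and C1qc did not pass either. The iron exporter Slc40a1 had 306 ± 30.1 CPM under pressure and 1108 ± 10.1 CPM in controls, and Cd38, an NAD-consuming ectoenzyme, 103 ± 1.31 CPM under pressure and 363 ± 11.3 CPM in controls. The 2 that rose were Adgre4 (log2 1.07 ± 0.14) and C6 (0.64 ± 0.19). Adgre4 had 9.09 ± 0.940 CPM under pressure and 4.34 ± 0.460 CPM in controls, and C6 3.03 ± 0.239 and 1.96 ± 0.183 CPM. In the pan-myeloid list of 18 genes, 3 rose, 5 fell and 10 did not pass, with a median of -0.090. The number lower was 8 with upper-quartile factors and 10 with library totals only. Ptprc, the leukocyte antigen CD45, rose by 0.65 ± 0.12, and Cd14, the lipopolysaccharide co-receptor, by 2.46 ± 0.15. The Fc receptor gene Fcgr3 fell to 33.8 ± 2.10 CPM under pressure, against 73.3 ± 3.25 CPM in controls. Changes of these genes covered a wider range than those of the 10 markers, but over more genes and with Cd14 far above the next highest. Which cells carried them was not tested.

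The lists of transcription factors, of CSF1R pathway and niche signals, and of heme and iron genes held calls in each direction. These again stand against 33.7% of all genes higher and 35.1% lower. Of 11 transcription factors linked to Kupffer cells, 4 rose, 6 fell and the PU.1 gene Spi1 did not pass (55.2 ± 1.16 CPM under pressure and 50.0 ± 5.54 CPM in controls; log2 0.14, adjusted p = 0.207). With library totals only, 2 rose and 6 fell. Nr1h3, which encodes LXRα and, in mice, is needed for Kupffer cell identity, had 14.3 ± 2.53 CPM under pressure and 50.8 ± 4.16 CPM in controls (log2 -1.84 ± 0.13). Maf, which sinusoidal endothelium also expresses, fell by 1.49 ± 0.11 on the log2 scale, and Rbpj, the effector of Notch, rose by 1.09 ± 0.11. Among 14 tested genes of the CSF1R pathway and niche signals, 4 rose and 5 fell (median -0.12), and without pressure sample 3, 7 rose and 5 fell. Csf1, the ligand of CSF1R, had 704 ± 116 CPM under pressure and 271 ± 10.7 CPM in controls (1.38 ± 0.11), while Inpp5d, an inositol phosphatase of leukocytes, fell by 1.29 ± 0.082. Of 11 tested heme and iron genes, 4 rose and 6 fell (median -0.44), and with library totals only, 2 rose and 6 fell. Heme oxygenase 1 (Hmox1) reached 6394 ± 435 CPM under pressure, against 3259 ± 161 CPM in controls, and biliverdin reductase A (Blvra) fell by 1.22 ± 0.093.

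By summed CPM, the following lists of other non-endothelial cells stood far below the Kupffer cell set. Cd5l, Marco and Lyz2 made up most of that set's sum. The lists differ in number and length of genes, so the sums do not compare amounts of cells. Single markers were not all higher. Clec4f averaged 80.3 CPM under pressure and 76.0 CPM in controls, against 132 and 104 CPM for the stellate gene Dcn. Summed over the listed genes, recruited monocyte genes reached 22.6 to 26.1 CPM under pressure and 30.2 to 32.5 CPM in controls, with Plac8 alone at 13.5 ± 2.12 CPM under pressure and 20.6 ± 0.750 CPM in controls. Chil3, and the neutrophil genes S100a9 and Retnlg, had 0 counts in all 6 libraries. Neutrophil genes summed to 5.17 to 6.96 CPM under pressure and 9.98 to 11.8 CPM in controls, and lymphocyte genes to 2.25 to 3.36 CPM under pressure and 3.17 to 4.75 CPM in controls. Hepatocyte genes summed to 45.4 to 51.3 CPM under pressure and 28.9 to 36.2 CPM in controls, and stellate cell genes to 171 to 196 CPM under pressure and 158 to 169 CPM in controls. The dendritic cell list summed to 29.8 to 34.1 CPM under pressure and 48.8 to 55.6 CPM in controls. Its largest change was that of Clec9a (log2 -3.77 ± 0.16), which had 1.43 ± 0.236 CPM under pressure and 19.5 ± 1.33 CPM in controls. Xcr1, of the same list, rose (1.99 ± 0.49, edgeR adjusted p = 0.0042) at low levels. It had 1.16 ± 0.485 CPM under pressure and 0.281 ± 0.190 CPM in controls. The 14 endothelial genes summed to 5506 to 6608 CPM under pressure and 7253 to 7703 CPM in controls, with 9 lower and 1 higher, Mcam (0.97 ± 0.12), against 35.1% of all genes lower and 33.7% higher. Without pressure sample 3, 8 were lower and 3 higher. The part of these cell types in the marker changes was not tested.

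**Figure D4:**
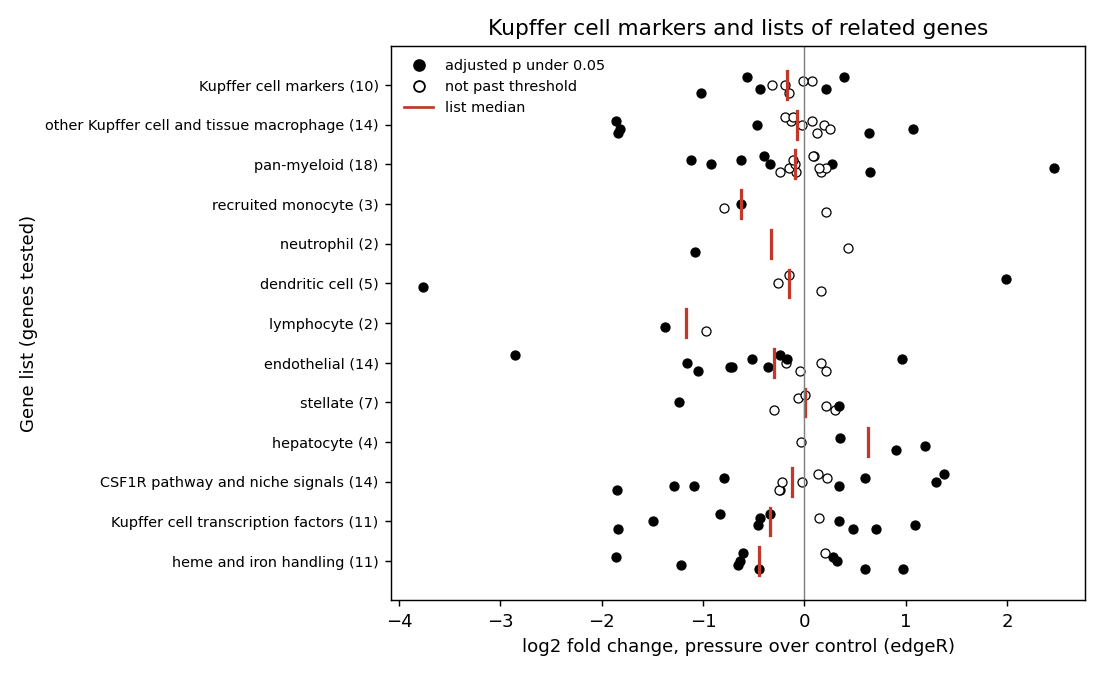
Log2 fold change, pressure over control, of every tested gene in the 10-marker set and 12 lists of related genes; filled points passed an adjusted p of 0.05 and red bars are list medians. The marker set spans -1.02 to 0.39, narrower than the longer pan-myeloid list, where Cd14 reached 2.46 and the next highest, Ptprc, 0.65.

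None of the genes whose levels over the 6 libraries ran closest to those of Cd5l and Csf1r stood in these lists. The lists hold few of the genes searched, so this says little about which cells carried the neighbours. By root mean square distance of centred log2 CPM, among 9719 genes of at least 5 CPM, the nearest to Cd5l were Ergic1 (0.023), Cd37, Arhgap10, Wdr91 and Agtrap (0.034). Nearest to Csf1r were Dgcr8 (0.027), Piezo1, Aacs, Klhl21 and Mapkapk2 (0.042). With 6 libraries and so many genes, such closeness is a description only.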

How the data were processed

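For each library the authors deposited expected counts, that is, estimated counts with fractions, by gene symbol. The labels' protocols give TruSeq stranded mRNA libraries, and the submitters' processing notes name TopHat2 2.2.1, Cufflinks 2.2.1 and the build mm10. The counting tool, strand setting and gene models were not given in the sources used here. Counts were rounded, and genes kept by filterByExpr (minimum count 10, minimum total 15). Samples were grouped by title. CPM are counts scaled to the library size times its TMM factor. Tests were edgeR 4.0.16 quasi-likelihood tests (R 4.3.3), two-sided, with Benjamini-Hochberg adjustment over all tested genes and a threshold of 0.05. The standard error was taken as the log2 change divided by the root of F. For marker ratios, the count of Csf1r, Cd5l or Cd68, or of the other markers summed, replaced the library size. Per-length levels used exonic union lengths of GENCODE M21 (GRCm38), which matched 96.1% of tested genes. Alternatives were DESeq2 1.42.0, limma-voom (limma 3.58.1), other scalings and filters, a sample-number block, and leaving out single samples.

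The markers, lists and tests were chosen with earlier results of these data known. Beyond the markers, genes were named by a rule: from each list up to 3 with the smallest p and the most abundant, Mcam, Pecam1 and Ptprc always, and the 5 nearest to Cd5l and Csf1r. Adgre1, Adgre4, C6, the C1q genes, Spi1, Chil3, S100a9, Retnlg, Hmgxb3 and Lyz1 were added after their values were seen.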

Additional observations from a re-analysis of the deposited data

How the results depend on the processing

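Cd5l, Vsig4 and Cd163 were lower under pressure in every alternative that could fit them (Cd163 could not be fitted at a mean of at least 5 CPM, nor Cd5l without the 50 most abundant genes). The number of markers higher, 2 in the report, was 1 with upper-quartile factors, with the replicate block and without the 50 most abundant genes (Marco is among those 50), and 0 with library totals only. The number lower, 3 in the report, was 6 with upper-quartile factors, library totals only or no low-count filter, and 5 with limma-voom. Library totals moved the median of all genes to -0.23 and gave 14 list members higher and 53 lower, against 23 and 38. Leaving out single samples gave 1 to 2 markers higher and 3 to 6 lower; relative to Cd5l 4 to 6 higher; relative to Csf1r 6 to 9 lower. With Cd5l in place of Csf1r 6 were higher and 0 lower, and with Cd68 2 and 2. With Cd5l and Lyz2 left out of the sum, 6 markers were lower than the rest, Clec4f became -0.049 and Timd4 -0.13. Changes near 0 turned sign. Timd4 was 0.0073 with RLE factors, 0.0080 with DESeq2 and -0.14 to 0.067 without single samples. Clec4f was -0.034 with upper-quartile factors, -0.14 with library totals and -0.0062 to 0.14 without single samples, and Marco -0.0030 with library totals. Without single samples, Spic over Cd5l was -0.039 to 0.21 and Lyz2 over the other markers -0.098 to 0.0027. The causes were not tested. Same-numbered libraries did not deviate together (r = 0.13, -0.23 and -0.13), so the replicate block pairs by number only; in it Marco was 0.21 (adjusted p = 0.0582). Depth limits the precision of Cd163, with 9 to 58 counts a library.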
